A study of Mus musculus with 109 samples.

Results

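The distal end of mouse chromosome 16, from 90 Mb to the last HindIII site of the count table (mm9, 90006154 to 98314740), was described here as it is seen from 4 viewpoints, or baits, on the same chromosome. The block was defined by position alone and holds 2450 of the 30962 HindIII sites counted on chromosome 16 and of the 823352 counted in all. The data are 4C-seq (circular chromosome conformation capture with sequencing) of C127 cells, a mouse mammary epithelial line: crosslinked chromatin was cut with HindIII, ligated, cut again with DpnII, circularised and amplified with primers at a bait, so that a read marks a HindIII site ligated to that bait. The series has 109 libraries from 12 baits. Cultures were synchronised in mitosis with nocodazole and either taken in mitosis or released into G1 or on to G2. Other cultures were starved of serum for G0. Of the 39 libraries titled with a chromosome 16 or 17 bait or with the 1.5-hour time point, 35 had titles naming another bait than the one their reads surround. These libraries were therefore assigned to the bait with most reads within 100 kb, and no titled time was used. In this way 28 libraries were found, 7 for each of the baits B30, B41, B46 and B48, of which 24 carry a title naming another bait. All 39 titles name times after mitosis, and none names G0, G2 or mitosis itself, but which library has which time is unknown. The 7 libraries of a bait thus come from unknown times and are not replicates of 1 condition. The titles of these 28 libraries all say biological replicate, but which columns these titles belong to is in doubt. The p-values therefore measure only the spread between these libraries.

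The block lies within the part of mouse chromosome 16 that shares its gene order with the human chromosome present in an extra copy in Down syndrome. It is not the whole of that part. Mouse models of that syndrome carry extra copies of the block. The block holds the interferon receptor cluster, the transcription factor genes Runx1, Erg and Ets2, and the kinase gene Dyrk1a. In interphase nuclei, gene-rich early-replicating chromatin and gene-poor late-replicating chromatin tend to contact their own kind over long distances, and baits in the series were chosen for their replication timing.

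The block is gene-rich for this chromosome. Its 17 bins of 500 kb had a median GC content of 46.2% against 39.7% over the 145 tested bins outside it, and 1 of the 17 held no start of a protein-coding gene against 50 of the 145. The stretch from 70 Mb to 85 Mb, which holds the Robo genes and Ncam2 and is called the desert here, had a median GC content of 36.9%, and 18 of its 30 bins held no gene start. The 4 baits differ in their surroundings as well. B30 (chr16:30595243-30595262) is intergenic, 4547 bp from Fam43a, in a bin of 47.0% GC with 9 protein-coding genes within 500 kb. B41 (chr16:40919975-40919993) is intergenic, 612978 bp from Lsamp, a gene for a neuronal adhesion protein, in a bin of 37.5% GC with 0 genes within 500 kb. B46 (chr16:45838128-45838147) lies in an intron of Phldb2, in a bin of 41.2% GC with 12 genes within 500 kb. B48 (chr16:48602104-48602122) lies in an intron of Morc1, a germ-line gene, in a bin of 39.4% GC with 11 genes within 500 kb. The block begins 59.4 Mb from B30, 49.1 Mb from B41, 44.2 Mb from B46 and 41.4 Mb from B48. The primers, which fix these viewpoints, end in the first bases of a HindIII site, shown in capitals:
B30: cggaaactcagcggtaAAGC
B41: aaggcacaggtagccAAGC
B46: gctacctaactgggcaAAGC
B48: ggctgtagcttagggAAGC

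Sequencing depth varied between libraries. The 28 libraries held 182669 to 3301246 reads, of which 6.64% to 33.1% lay within 100 kb of their own bait and at most 0.556% near the next best bait. Each bait had 2 libraries under 500000 reads, 2 from 500000 to 2000000 and 3 of 2000000 or more, so depth was balanced between baits. The B41 primer also matches a sequence on chromosome 9, within 100 kb of which at most 0.00418% of the reads of any B41 library lay. Libraries of 1 bait shared captured sites on other chromosomes 1.80 to 11.5 times more often than independent draws would, and libraries of different baits 1.37 to 2.21 times.

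A few single sites show what a capture is. Of the 2450 block sites, 246 (10.0%) were captured, with 1 read or more, in none of the 28 libraries, and 221 of these in none of the 109. The median site was captured in 12 of the 28, 82 sites in 21 or more, and 0 in all 28. The 6 sites captured most often are shown because they are the ligation partners that recurred across baits, with the HindIII recognition sequence in capitals and 30 bases of the plus strand of mm9 on each side:
chr16:90706162-90706227: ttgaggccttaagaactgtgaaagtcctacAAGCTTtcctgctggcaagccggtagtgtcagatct
chr16:90562317-90562382: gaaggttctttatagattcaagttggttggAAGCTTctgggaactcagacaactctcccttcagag
chr16:95430393-95430458: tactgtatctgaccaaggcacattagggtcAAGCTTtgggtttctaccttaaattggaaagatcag
chr16:95388854-95388919: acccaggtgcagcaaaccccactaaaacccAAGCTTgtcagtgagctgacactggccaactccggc
chr16:97278114-97278179: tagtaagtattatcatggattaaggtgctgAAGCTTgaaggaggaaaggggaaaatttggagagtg
chr16:95219880-95219945: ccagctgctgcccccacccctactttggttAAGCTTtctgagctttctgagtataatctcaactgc

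The site at 90706192, intergenic and 32372 bp from Mrap, was captured in 26 of the 28 libraries, 5 of 7 for B30 and 7 of 7 for each of the other baits. The site at 90562347 is intergenic, 62549 bp from the kinase gene Hunk, and was captured in 25 libraries with 2740 reads in all, the most reads of these 6. The sites at 95430423 and 95388884 lie 48737 bp and 90276 bp from the potassium channel gene Kcnj15, and that at 95219910 lies 607 bp from the channel gene Kcnj6. The site at 97278144 is in a coding exon of Dscam, a neuronal cell adhesion gene. Each of these 4 was captured in 25 libraries. The first site was captured in 2 of the 70 libraries of chromosome 8 baits, and the site at 95430423 in 0 of them, so recurrence at the chromosome 16 baits did not go with recurrence in trans for every site. Over all block sites the rank correlation between the number of chromosome 16 libraries and the number of chromosome 8 libraries that captured a site was 0.60. The points share restriction fragments, and the median distance to the nearer neighbouring HindIII site was 2030 bp for sites captured in 21 or more libraries and 910 bp for those captured in none, while the median GC content of the surrounding 500 bp was 44.8% and 43.4%.

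For each bait, the site captured in at least 5 of its own 7 libraries and in fewest of the other 21 is shown as the sequence most biased to that bait:
B30, chr16:93214474-93214539: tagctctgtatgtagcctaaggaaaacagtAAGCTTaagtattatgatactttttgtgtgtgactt
B41, chr16:90605825-90605890: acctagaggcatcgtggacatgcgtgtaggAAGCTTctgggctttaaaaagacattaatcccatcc
B46, chr16:97867953-97868018: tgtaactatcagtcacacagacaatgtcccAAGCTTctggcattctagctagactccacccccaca
B48, chr16:95610085-95610150: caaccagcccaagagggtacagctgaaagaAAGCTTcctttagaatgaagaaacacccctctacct

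The B30 site is intergenic, 369193 bp from Setd4, and was captured in 5 of 7 B30 libraries and in 4 of the other 21. The B41 site is intergenic, 106057 bp from Hunk, and was captured in 7 of 7 B41 libraries and in 4 of the others. The B46 site is intergenic, 35181 bp from the protease gene Tmprss2, with 5 of 7 and 2 of 21. The B48 site is in an intron of Erg, an ETS-family transcription factor gene, with 5 of 7 and 4 of 21. These were the extremes of 2450 sites and were chosen for their bias, so their counts are a description.

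Seen from B41 and B48, the block was captured less than the desert nearer to the bait, and seen from B30 and B46 it was captured more than the desert in most libraries. From B41 the lowest, median and highest share of block sites captured over the 7 libraries was 17.6%, 35.02% and 66.0%, against 28.6%, 51.2% and 73.7% of desert sites. From B48 it was 22.4%, 30.7% and 62.2% in the block and 33.2%, 41.6% and 70.3% in the desert. In all 7 libraries of B41 and all 7 of B48 the block was below the desert. From B30 the block had 10.8%, 31.6% and 72.3% and the desert 16.4%, 24.3% and 46.9%. From B46 the block had 18.9%, 48.1% and 78.2% and the desert 31.1%, 37.6% and 64.4%. For both of these baits the block was above the desert in 5 of 7 libraries, and the exceptions were the 2 libraries under 500000 reads. The block is farther than the desert from every one of the 4 baits.

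**Figure D1:**
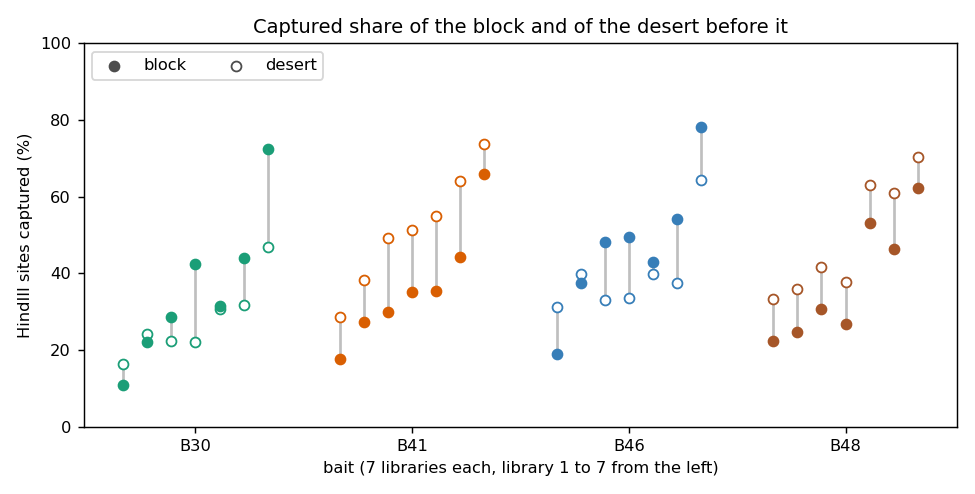
Percentage of HindIII sites captured in the block (filled) and in the desert (open) in each of the 28 libraries, joined by a line within a library and coloured by bait. The filled points lie below the open ones in 7 of 7 B41 and 7 of 7 B48 libraries and above them in 5 of 7 B30 and 5 of 7 B46 libraries.

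The log2 ratio of the captured share of the block to that of the desert needs no distance curve. Its mean was -0.54 ± 0.19 (SD, n = 7) from B41 and -0.41 ± 0.15 from B48, each with an adjusted p of 0.0312 (exact two-sided sign-flip permutation test over libraries, Benjamini-Hochberg over 4 baits; smallest raw p possible 0.0156). It was 0.24 ± 0.52 from B30 and 0.17 ± 0.46 from B46, each with an adjusted p of 0.344 in the exact test, and so did not pass the test. Between baits, the ratio was higher from B30 than from B41 by 0.78 and than from B48 by 0.65. It was also higher from B46 than from B48 by 0.58, and lower from B41 than from B46 by 0.71. Each of these 4 differences had an adjusted p of 0.0184 (exact permutation of library labels, two-sided, 7 against 7, Benjamini-Hochberg over 6 pairs). B30 and B46 differed by 0.07 (SE 0.26) with an adjusted p of 0.798, and B41 was lower than B48 by 0.13 (SE 0.09) with an adjusted p of 0.208, both in the exact permutation test.

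To set the block against its distance, a curve of captured share on log distance was fitted in each library outside the block, and the captured block sites were divided by the number the curve gave. The log2 observed over expected of the block had its lowest, median and highest library at -0.57, -0.39 and -0.06 from B41, at -0.93, 0.26 and 0.88 from B30, at -0.37, 0.23 and 0.41 from B46 and at -0.10, -0.04 and 0.02 from B48. All 7 B41 libraries were below 0, the B48 libraries lay within a narrow range around it, and the B30 libraries spread over the widest range. The means were -0.37 ± 0.16 for B41, 0.11 ± 0.62 for B30, 0.17 ± 0.28 for B46 and -0.03 ± 0.04 for B48 (SD, n = 7 each). None of the 4 passed the test after adjustment: the adjusted p was 0.0625 for B41, with a raw p of 0.0156, the smallest the exact sign-flip test can give, 0.656 for B30, and 0.146 for B46 and for B48. Between baits, the block was lower from B41 than from B46 by 0.54 (SE 0.12) and than from B48 by 0.34 (SE 0.06), each with an adjusted p of 0.00699 (exact permutation test over libraries). The other 4 pairs had adjusted p from 0.112 to 0.819 in the same exact test.

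Taking the desert's own observed over expected away within each library gave -0.46 ± 0.17 (SD, n = 7) for B41 and -0.26 ± 0.08 for B48, negative in 7 of 7 libraries of each bait, with an adjusted p of 0.0312 in the exact sign-flip test. With the distance decay of the chromosome 8 baits in place of each library's own curve, the B41 value was -0.074 and that of B48 turned to 0.064, above 0 in 5 of 7 libraries, each with an adjusted p of 0.25 in the exact test. Without any single library of its own the adjusted p of B41, and likewise of B48, was 0.0625 in the exact test. The raw p was then 0.0312, the smallest that 6 libraries allow, so the call could not be kept. The 6 remaining values were below 0 each time by construction, since all 7 were. The same difference was 0.42 ± 0.48 for B30 and 0.32 ± 0.40 for B46, positive in 6 of 7 libraries of each, with adjusted p of 0.104 and 0.109 in the exact test. With bins weighted by their mean capture from the chromosome 8 baits, the B46 value turned to -0.023, above 0 in 4 of 7 libraries. With the curve fitted beyond 10 Mb it was 0.42. With each library's own curve as first fitted, B30 exceeded B41 by 0.88 and B48 by 0.69, and B46 exceeded B48 by 0.58. There B41 lay below B46 by 0.78 and below B48 by 0.20. Their adjusted p was 0.00524 for B30 and for B46 against B41, 0.00787 for B30 and for B46 against B48, and 0.021 for B41 against B48 (exact permutation tests over libraries). The difference between B41 and B48 did not pass in the ratio without a curve and turned to 0.048 with a lowess curve that includes the block. B30 and B46 differed by 0.11 (SE 0.24), with an adjusted p of 0.663 in the exact test. B46 and B48 are the closest of the 4 baits to each other and to the block, and their mean values lay on opposite sides of 0.

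**Figure D2:**
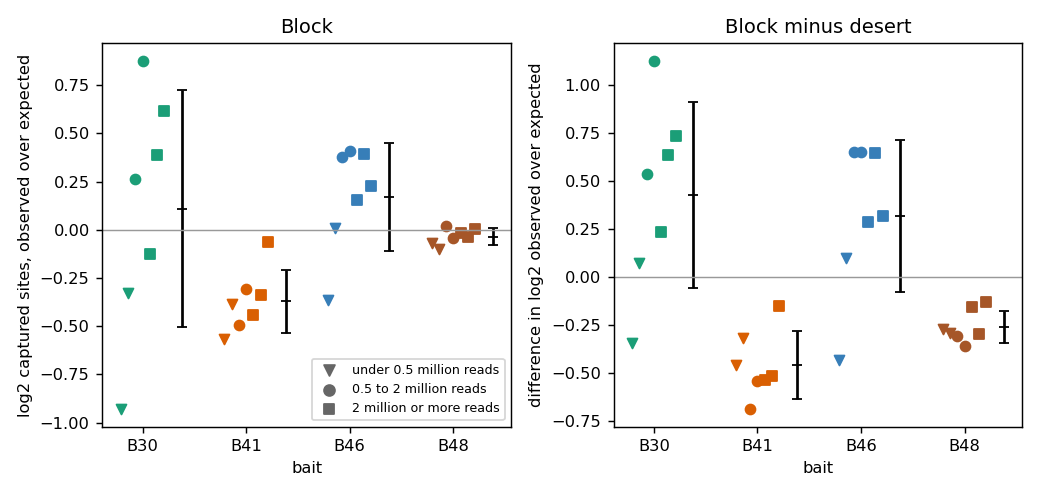
Log2 observed over expected captured sites of the block (left) and the same after subtraction of the desert's value (right) for the 7 libraries of each bait, with the symbol giving the depth class and the black bar the mean and SD. In the right panel all B41 and B48 libraries are below 0, and 6 of 7 B30 and 6 of 7 B46 libraries are above it.

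Depth moved with the values of B30 and B46. In the 2 libraries under 500000 reads the mean block minus desert was -0.14 for B30 and -0.17 for B46. It was 0.83 and 0.65 in the 2 libraries from 500000 to 2000000 reads, and 0.53 and 0.41 in the 3 of 2000000 or more. For B41 the same means were -0.39, -0.62 and -0.40, and for B48 -0.28, -0.34 and -0.20. Since the time after mitosis and the cell-cycle phase of each library are unknown, depth cannot be told apart from them here. The slope of the fitted curve also differed between libraries, from -0.66 to -0.01. When the decay of the chromosome 8 baits was imposed on every library, the block of B41 turned to 0.32 and that of B48 to 0.40, with adjusted p of 0.0938 and 0.0625 in the exact test.

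Within the block the 4 baits did not see the same bins. Captured sites per 500-kb bin were compared between each bait and the mean of the other 3, with the distance curve as an offset (edgeR quasi-likelihood test, Benjamini-Hochberg over all 162 tested bins of the chromosome and 4 contrasts, threshold 0.05). From B41, 11 of the 17 block bins were lower, against 25.3% of all tested bins, and 0 were higher, against 27.2%. From B30, 8 of the 17 were higher, against 30.2% of all bins, and 0 lower, against 27.8%. From B46, 8 were higher, against 29.6%, and 0 lower, against 25.9%. From B48, 4 were lower, against 28.4%, and 2 higher, against 27.8%. Of the 8 bins higher from B30, 7 were also higher from B46 and all 8 were lower from B41. These contrasts share libraries, each bait being part of the mean the others are set against. Beside the counts of 0, unadjusted p under 0.05 gave 0 higher bins for B41, 2 lower bins for B30 and 0 lower bins for B46, while DESeq2 gave 0, 2 and 0 and limma 0, 2 and 0. The decay of the chromosome 8 baits was also used in place of each library's own curve. There 4 bins were lower from B41, against 39 of all 162 tested bins, and 5 were higher from B30, against 34. From B46, 4 were higher, against 41. From B48, 3 were lower, against 37, and 0 higher, against 32. The shares from B41 and B46 were then close to those of all tested bins. Without library 6 of B46 the bins higher from B46 were 5, against 43 of all 162. Without library 6 of B48 the bins lower from B48 were 1, against 37.

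The bins from 91.5 Mb to 93 Mb were called in every one of the 4 contrasts. At 91.5 Mb lies a run of housekeeping and signalling genes: Ifngr2, a chain of the interferon gamma receptor, Gart, an enzyme of purine synthesis, Son, a splicing protein, Atp5o, a subunit of the mitochondrial ATP synthase, and Itsn1, an endocytosis scaffold. In this bin the lowest, median and highest captured share was 9.20%, 38.04% and 81.6% from B30, 21.5%, 55.2% and 81.6% from B46, 17.2%, 25.8% and 49.1% from B41 and 15.95%, 22.1% and 46.6% from B48. The groups overlapped, with the B30 and B46 medians above those of B41 and B48. Against the mean of the other baits the log2 difference was 0.70 ± 0.16 (SE) from B30, 0.67 ± 0.15 from B46, -0.83 ± 0.17 from B41 and -0.54 ± 0.17 from B48, with edgeR adjusted p of 0.000489, 0.000463, 0.000156 and 0.00721.

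The bin at 92 Mb holds Kcne1 and Kcne2, accessory subunits of potassium channels, and Rcan1, an inhibitor of calcineurin. Its log2 difference was 0.79 ± 0.16 (SE) from B30, the highest of B30 in the block, 0.46 ± 0.15 from B46, -0.80 ± 0.17 from B41 and -0.46 ± 0.17 from B48, with edgeR adjusted p of 0.000164, 0.0114, 0.000314 and 0.0228. In the bin at 92.5 Mb the only named gene with its start is Runx1, a transcription factor of blood formation. The median captured share there was 39.7% from B30, 58.3% from B46, 21.9% from B41 and 22.5% from B48. The difference from B41 was -0.96 ± 0.18 (SE), its lowest in the block, with an edgeR adjusted p of 8.29e-05, and that from B46 was 0.71 ± 0.16, its highest. The difference was 0.73 ± 0.17 from B30 and -0.48 ± 0.18 from B48.

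Farther along, the bin at 94.5 Mb was higher from B30 and B46 and lower from B41. It holds Dyrk1a, a kinase of brain growth, Ttc3, a ubiquitin ligase, and Hlcs, which attaches biotin to carboxylases. Its differences were 0.60 ± 0.15 (SE) from B30, 0.54 ± 0.14 from B46 and -0.86 ± 0.15 from B41, with edgeR adjusted p of 0.00113, 0.00176 and 5.81e-05. The bins at 90.5 Mb and 93.5 Mb were called in the same 3 directions. The second of these holds Morc3, a chromatin ATPase, and Chaf1b, a histone chaperone subunit. The bin at 93 Mb, where no protein-coding gene starts, was higher from B30 by 0.60 ± 0.17 and lower from B41 (-0.65 ± 0.17), without a call from B46. The bin at 96 Mb, with the bromodomain gene Brwd1 and the nucleosome-binding gene Hmgn1, was higher from B46 by 0.52 ± 0.15 and lower from B41 (-0.74 ± 0.16). The bins at 91 Mb and 95.5 Mb were lower from B41 (-0.50 ± 0.15 and -0.32 ± 0.12) and called at no other bait. The last bin of the chromosome, from 98 Mb, was called at all 4 baits: 0.57 ± 0.15 from B30, 0.43 ± 0.15 from B46, -0.62 ± 0.16 from B41 and -0.38 ± 0.16 from B48.

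The 2 bins higher from B48 were 11.8% of the block's bins, below the 27.8% of all tested bins. With the decay of the chromosome 8 baits 0 block bins were higher from B48, against 32 of all 162. The bin at 95 Mb holds the starts of Kcnj6 and Kcnj15, inward-rectifier potassium channels, and that at 96.5 Mb holds Pcp4, a calmodulin-binding protein of Purkinje cells. In the first, the lowest, median and highest captured share was 25%, 46.3% and 81.6% from B48 and 17.6%, 50.7% and 80.9% from B41, against 10.3%, 26.5% and 57.4% from B30 and 19.9%, 33.8% and 75.0% from B46. The ranges overlapped in all 4. The log2 difference of B48 was 0.40 ± 0.11 (SE) at 95 Mb and 0.48 ± 0.11 at 96.5 Mb, with edgeR adjusted p of 0.00258 and 0.000561. The difference of B30 was -0.28 ± 0.12 at each, with edgeR adjusted p of 0.05002 and 0.0565. From B48 the log2 observed over expected was above 0 in 7 of 7 libraries in the bins at 90 Mb, 95 Mb, 95.5 Mb, 96.5 Mb and 97 Mb, the last of which holds the start of Dscam. It was below 0 in 7 of 7 in the bins from 91.5 Mb to 94 Mb and in the last bin.

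**Figure D3:**
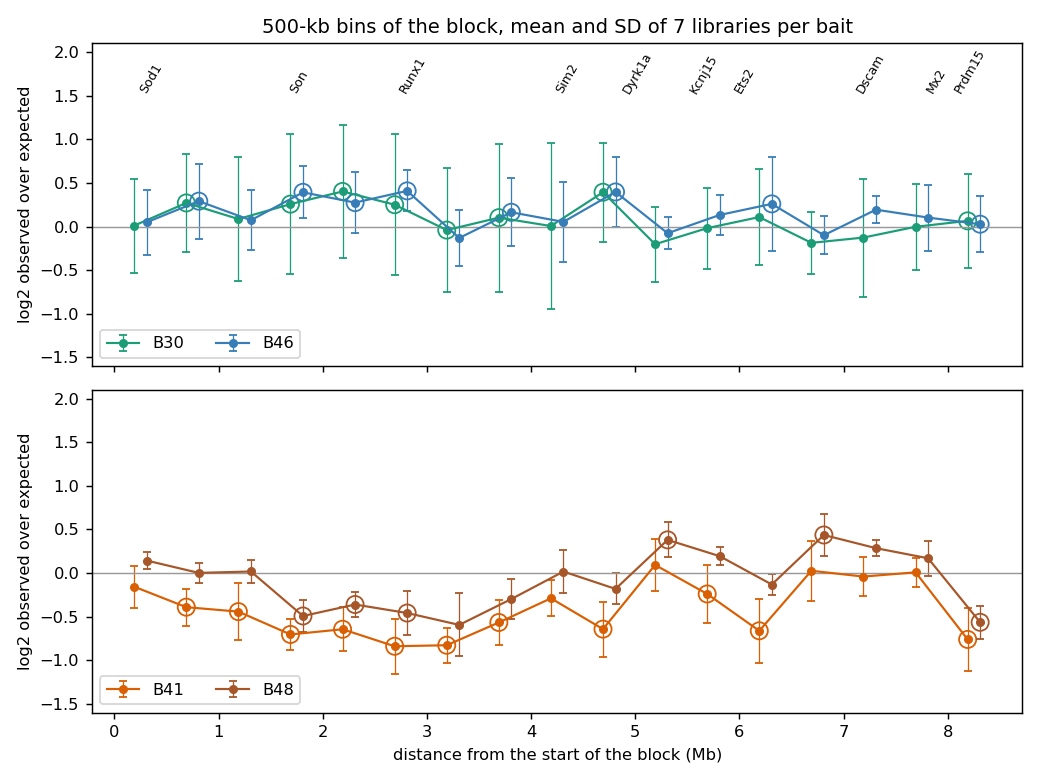
Log2 observed over expected captured sites in the 17 bins of the block against distance from its start, mean and SD over the 7 libraries of a bait, with B30 and B46 above and B41 and B48 below. A ring marks a bin called against the mean of the other 3 baits, and gene names stand at their positions. B41 and B48 share the rise at 5 to 5.5 Mb and at 6.5 to 7 Mb, where B30 and B46 are near or below 0.

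Averaged over the 4 baits, the 3 highest bins were those at 97 Mb, 97.5 Mb and 95 Mb, with mean log2 observed over expected of 0.08, 0.07 and 0.05. The 3 lowest were those at 93 Mb (-0.40), 98 Mb (-0.31) and 92.5 Mb (-0.16). The average hides the opposition between the baits. Over the 17 bins, Pearson's r of the bin means was 0.95 between B41 and B48 and 0.82 between B30 and B46. It was -0.68 between B30 and B41 and -0.35 between B46 and B48. Over the 145 bins outside the block the same values were 0.93, 0.86, 0.39 and 0.45. The lowest of those bins had a mean of -3.16 or below at every bait, against -0.84 or above in the block, which can raise r at every pair. Over the 30 bins of the desert the values were 0.95, 0.97, 0.23 and 0.18. The likeness of B41 to B48 and of B30 to B46 was thus not particular to the block. Bins share their site density and base composition, and these values are a description. Within the block, in the libraries under 500000 reads alone, r was 0.43 between B41 and B48 and 0.13 between B30 and B46. It was 0.92 and 0.83 in those from 500000 to 2000000 reads and 0.97 and 0.79 in those of 2000000 or more. Spearman's rho with the number of gene starts per bin was 0.66 for B30, 0.38 for B46, -0.14 for B41 and -0.18 for B48 over the 17 bins, and 0.46, 0.49, -0.37 and -0.41 over the 145 bins outside the block. With GC content it was 0.40, 0.26, -0.14 and -0.18 in the block and 0.71, 0.56, -0.31 and -0.49 outside it.

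By function, each named gene was given the call of the bin that holds its start. The list has 35 genes, all found in the annotation, in 15 of the 17 bins, so genes of a bin share their call by construction, and the gene's own window can differ from it. From B41, 26 of the 35 lay in a lower bin and 0 in a higher one, where 25.3% of all tested bins and 64.7% of the block's bins were lower. From B30, 16 lay in a higher bin and 0 in a lower one, where 30.2% of all bins and 47.1% of the block's were higher. From B46, 18 lay in a higher bin and 0 in a lower one, where 29.6% and 47.1% were higher. From B48, 3 lay in a higher bin and 10 in a lower one, where 27.8% of all bins and 11.8% of the block's were higher and 28.4% and 23.5% lower. The median log2 observed over expected of a window of the gene with 100 kb on each side was 0.25 from B30, 0.31 from B46, -0.47 from B41 and -0.02 from B48. The 145 bins of 500 kb outside the block had medians of -0.02, -0.01, 0.01 and -0.02 in the same order. The curve was fitted outside the block, so these lie near 0 by construction and are no background for gene windows.

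Among the signalling and chromatin genes (Rcan1, Dyrk1a, Ttc3, Brwd1, Hmgn1, Morc3 and Chaf1b), all 7, in 4 bins, lay in bins lower from B41 (64.7% of block bins) and higher from B46 (47.1%), 5 in bins higher from B30 (47.1%), and 1 in a bin lower from B48 (23.5%). The Dyrk1a window (gene at 94791617-94917124, plus strand) had a mean of 0.39 ± 0.57 (SD, n = 7) from B30, 0.42 ± 0.34 from B46, -0.50 ± 0.27 from B41 and -0.04 ± 0.12 from B48. The Rcan1 window (92392198-92466391, minus strand) had 0.26 ± 0.88, 0.29 ± 0.29, -0.78 ± 0.42 and -0.43 ± 0.13 in the same order.

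The 6 genes of metabolism and housekeeping (Sod1, Gart, Son, Atp5o, Cbr1 and Hlcs) lay in 4 bins. Of these genes, 5 lay in bins lower from B41 (64.7% of block bins). The same number lay in bins higher from B30 and from B46 (47.1% each). The 3 that were in a bin lower from B48 (23.5%), Gart, Son and Atp5o, share 1 bin. The Son window (91647751-91679466, plus strand) had 0.22 ± 0.97 from B30, 0.41 ± 0.25 from B46, -0.81 ± 0.23 from B41 and -0.59 ± 0.17 from B48 (SD, n = 7). Sod1, the cytosolic superoxide dismutase, was the exception, in the first bin of the block, which was called at none of the baits. The Cbr1 window, around a carbonyl reductase gene, was below 0 on average at all 4 baits (-0.17, -0.29, -0.87 and -0.73 from B30, B46, B41 and B48) although its bin was higher from B30 and B46.

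The transcription factor genes divided by position. Runx1 (92601712-92826311, minus strand) had a window mean of 0.29 ± 0.78 from B30, 0.45 ± 0.24 from B46, -0.73 ± 0.31 from B41 and -0.46 ± 0.28 from B48 (SD, n = 7). Prdm15, a zinc finger gene near the chromosome end, had 0.52 ± 0.70, 0.62 ± 0.28, -0.06 ± 0.31 and -0.02 ± 0.18, while the means of its bin were 0.06, 0.03, -0.76 and -0.56. Olig1 and Olig2, factors of the oligodendrocyte lineage, lay in a bin lower from B41 that was not called at the other baits, with B41 window means of -0.29 ± 0.27 and -0.28 ± 0.27. Erg and Ets2 share a bin lower from B41, and their windows had -0.15 ± 0.33 and -0.47 ± 0.32. Sim2, a factor of the developing midline, lay in a bin called at none of the baits.

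Of the 6 interferon and cytokine genes, Ifnar1, Ifnar2, Il10rb and Ifngr2, which encode receptor chains, lay in bins lower from B41, while the antiviral effector genes Mx1 and Mx2 lay in a bin not called at any bait. The Ifnar1 window had 0.39 ± 0.22 from B46 and -0.65 ± 0.45 from B41, and the Mx1 window 0.09 ± 0.23 and 0.17 ± 0.18 (SD, n = 7). The 4 potassium channel genes fell into opposite pairs from B48: Kcne1 and Kcne2 in a lower bin, with window means of -0.34 ± 0.18 and -0.23 ± 0.31, and Kcnj6 and Kcnj15 in a higher one, with 0.25 ± 0.17 and 0.32 ± 0.23. Of the 5 nervous system genes, Synj1, a phosphatase of synaptic vesicles, and Itsn1 lay in bins lower from B41, Pcp4 in the bin higher from B48, and Dscam and Bace2, a protease of the membrane, in bins called at none.

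**Figure D4:**
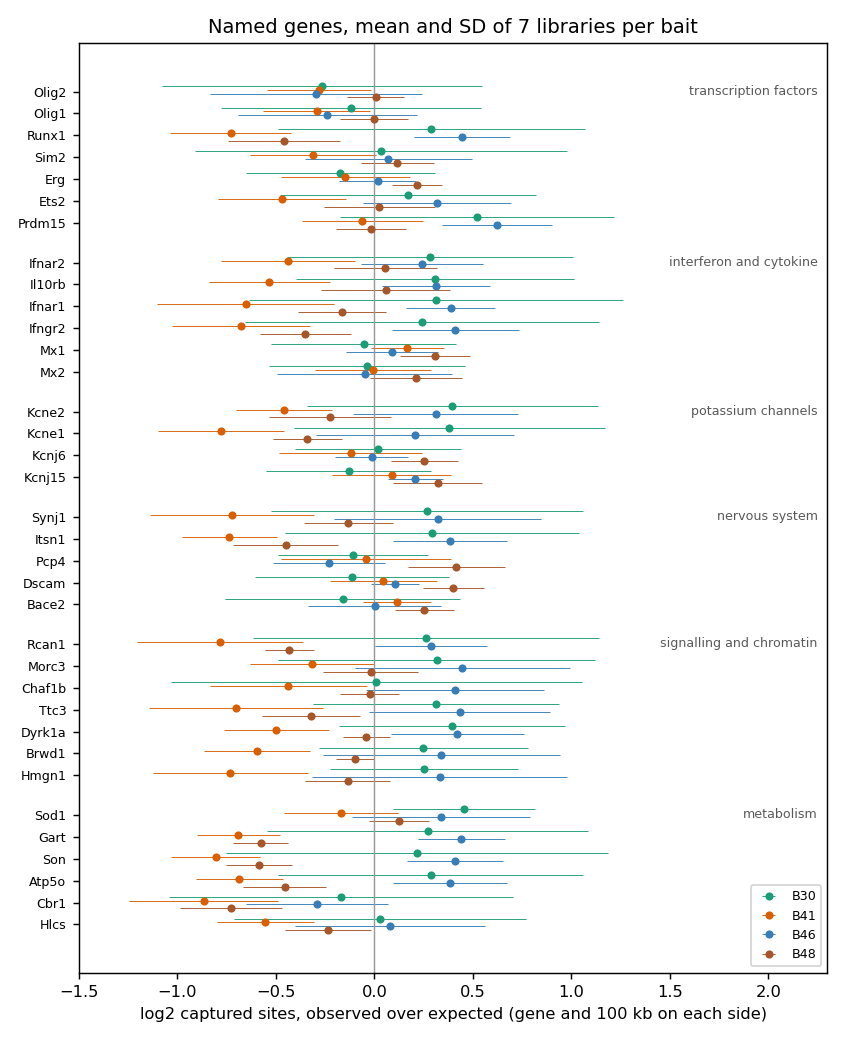
Log2 observed over expected captured sites in a window of each named gene with 100 kb on each side, mean and SD over the 7 libraries of each bait, grouped by role and ordered by position within a role. The B41 points of genes from Synj1 to Hmgn1 lie mostly to the left of the B30 and B46 points, and the 4 baits lie close together at Mx2.

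The 3 bins outside the block whose log2 observed over expected was most like the block's over the 28 libraries lie between it and the desert or at the desert's end. They begin at 84.5 Mb, with Gabpa, Jam2, Mrpl39 and Atp5j (Pearson's r 0.93), at 85.5 Mb, with the protease genes Adamts1 and Adamts5 (0.90), and at 86 Mb, with no protein-coding gene start (0.89). The least like was the bin at 54 Mb, which holds no gene start (r -0.86). The libraries share baits, and the bins share the curve of their library.

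From baits on other chromosomes the block is in trans, where distance plays no part. The share of block sites captured was compared with that of all HindIII sites outside the bait's chromosome and chromosome 16, over the 70 libraries of 6 chromosome 8 baits and 8 libraries of 2 chromosome 17 baits. The log2 ratio had a median of 0.55 for B118 (0.17 to 0.85, above 0 in 11 of 11 libraries), 0.50 for B26 (0.25 to 0.88, 12 of 12) and 0.33 for B87 (0.10 to 1.21, 11 of 11). It was 0.17 for B53 (-0.23 to 0.49, 11 of 12), 0.05 for B7 (-0.56 to 0.60, 7 of 12) and -0.03 for B44 (-0.38 to 0.30, 5 of 12). For the chromosome 17 baits it was 0.52 for B50 (0.48 to 0.73, 4 of 4) and 0.34 for B76 (0.05 to 0.42, 4 of 4). The ranges of B118 and B26 lay above 0 and overlapped with those of the lower baits. These ratios rest on 11 to 301 captured block sites per library, and no test was made between these baits. For each chromosome 8 bait the libraries include a pair titled as technical replicates, which were counted separately. By title the 70 libraries of chromosome 8 baits mix G0, G2, mitosis and times after mitosis. The libraries of a bait are therefore not replicates of the same condition. Only B7, B26, B44 and B53 have a library titled as mitosis.

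**Figure D5:**
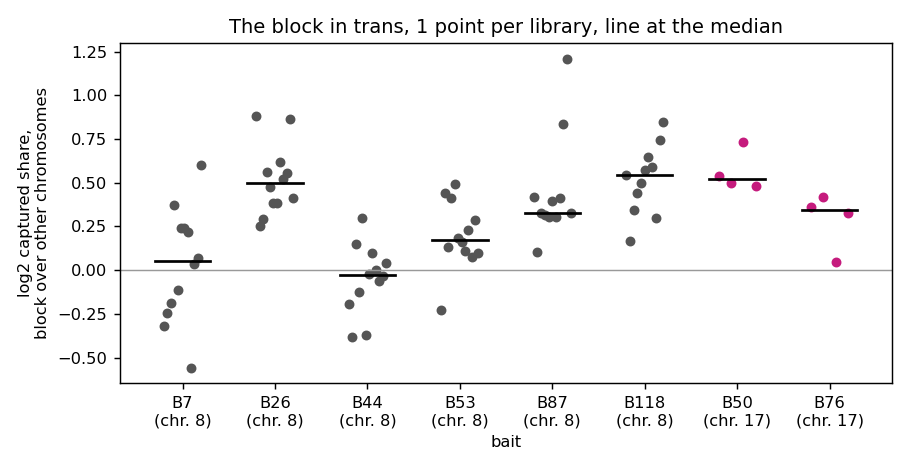
Log2 ratio of the captured share of block sites to that of HindIII sites on other chromosomes, for each library of the 6 chromosome 8 baits and the 2 chromosome 17 baits, with a line at the median. All libraries of B26, B87, B118, B50 and B76 lie above 0, and those of B7 and B44 lie on both sides of it.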

How the data were processed

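The authors deposited a table of raw read counts per HindIII site for 109 libraries; per the labels' protocols the reads were 50 bp and coordinates are mm9, and the aligner BWA 0.5.9 is named in the submitters' processing notes. All 30962 chromosome 16 positions of the table are AAGCTT starts in mm9. A site with 1 read or more was called captured, since amplified reads are not independent molecules. The expected share came from a binomial model (complementary log-log link, linear in log distance; statsmodels) fitted per library to 500-kb bins of chromosome 16 more than 2 Mb from the bait and outside the block. Block values were tested over libraries by exact permutation, and bins by edgeR 4.0.16 (R 4.3.3) on bins with 50 or more sites, with DESeq2 1.42.0 and limma 3.58.1 as alternatives; in a bin mean 0.5 was added to observed and expected. Scripts were tested on simulated data. Genes are protein-coding genes of GENCODE vM1 on mm9. Named bins were the 3 highest, the 3 lowest and all called ones; named sites were the 6 captured in most libraries and 1 per bait; named genes were well-known genes by role. Members and lists were chosen with earlier results of these data known. The comparison of block minus desert between baits, with its alternatives, was added after the data were seen. Depth was 182669 to 3301246 reads per library.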

Additional observations from a re-analysis of the deposited data

Results flagged for a closer look

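The effect under the same contrast, block minus desert within a library, differed between baits by a test of the difference itself (exact permutation over 7 against 7 libraries, adjusted p 0.00524 to 0.021 over 6 pairs). The differences were 0.88 for B30 minus B41, 0.69 for B30 minus B48, -0.78 for B41 minus B46, -0.20 for B41 minus B48 and 0.58 for B46 minus B48. The first value was higher in 47 of the 49 pairs of a B30 and a B41 library, and 43 of 49 for B30 and B48. The B41 value was higher in 2 of 49 pairs with B46 and 7 of 49 with B48, and the B46 value was higher in 42 of 49 with B48. The difference between B41 and B48 lost its call with the curve beyond 10 Mb (-0.19), the chromosome 8 decay (-0.14), mean trans weighting (-0.21), no curve (-0.13, adjusted p 0.208 in the exact test) and without the libraries sharing most sites (-0.18), and turned to 0.048 with the lowess curve. Among the 7 libraries of each bait, no library stood apart by Dixon's test in block share, block observed over expected or block minus desert.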

How the results depend on the processing

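Of 476 values under alternatives other than leaving out a library, 385 kept their direction and side of the threshold, or their count within 1.5 times. No p was used for the depth classes. There a value was kept if its direction held and it lay within the libraries' spread around the main value. The cause of the other changes was not tested. With the curve fitted beyond 10 Mb, block minus desert passed the threshold for B30 (0.53) and B46 (0.42), as did the block differences B30 minus B41 (0.69) and B46 minus B48 (0.31); B30 minus B46 turned to 0.063, B41 minus B48 in block minus desert lost its call (-0.19), and 7 bins were lower from B48. With a lowess curve that includes the block, B48 turned to 0.0076, block minus desert passed for B30 (0.31) and B46 (0.25), and the block differences B30 minus B41 (0.21), B30 minus B48 (0.16) and B46 minus B48 (0.12) passed. There B30 minus B46 turned to 0.047, B41 minus B48 lost its call (-0.045) and in block minus desert turned to 0.048.

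With the chromosome 8 decay the block turned to 0.32 for B41 and 0.40 for B48, and block minus desert lost its call for B41 (-0.074) and turned for B48 (0.064). The block differences B41 minus B46 (-0.32) and B41 minus B48 (-0.082), and the latter in block minus desert (-0.14), lost their calls. Bin counts there were 5 higher from B30, 4 higher from B46, 0 higher from B48 and 4 lower from B41. Of all 162 tested bins these were 34, 41, 32 and 39. Per base pair, B30 turned to -0.12, B41 (-0.54) and B48 (-0.17) passed the threshold, and 2 bins were lower from B30. B41 and B48 also passed with 5 reads or more (-0.45 and -0.10), with reads (-0.83 and -0.19), from 91 Mb (-0.38 and -0.053) and weighted by libraries with any trans capture (-0.40 and -0.059). Weighted by mean trans capture they passed (-0.59 and -0.18), while B30 (-0.22), B46 (-0.023), block minus desert of B46 (-0.023) and B30 minus B48 (-0.033) turned and B41 minus B48 in block minus desert lost its call (-0.21). That call was also lost with no curve (-0.13) and without the libraries that share most sites (-0.18), where B30 minus B46 turned to 0.0070. There block minus desert of B41 (-0.46) and B48 (-0.28) lost its call (adjusted p 0.0625, raw p 0.0312, the smallest that 6 libraries allow).

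In libraries under 500000 reads the block was -0.63 for B30, -0.18 for B46 and -0.085 for B48, and block minus desert -0.14 for B30 and -0.17 for B46. Block differences there were -0.15 for B30 minus B41, -0.54 for B30 minus B48, -0.30 for B41 minus B46 and -0.095 for B46 minus B48; in block minus desert they were 0.25, 0.14, -0.22 and 0.11. From 500000 to 2000000 reads, block differences were 0.97 for B30 minus B41, 0.18 for B30 minus B46, 0.58 for B30 minus B48, -0.80 for B41 minus B46 and 0.41 for B46 minus B48; in block minus desert they were 1.44 for B30 minus B41, 1.17 for B30 minus B48, -1.27 for B41 minus B46 and 0.99 for B46 minus B48. At 2000000 or more reads, B30 minus B46 was 0.035.

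Of 9 block bins of 1 Mb, 5, 4 and 1 were higher from B30, B46 and B48, against 27, 26 and 24 of all 81. Those lower were 7 from B41 and 2 from B48, against 23 and 25. Of 34 block bins of 250 kb, 15, 14 and 5 were higher from B30, B46 and B48, against 82, 91 and 82 of all 323. Those lower were 21 from B41 and 1 from B30, against 73 and 82. The bins lower from B30 were 2 with DESeq2, limma, the Poisson curve or depth class as a block, and 1 with 2 reads or more or with reads; limma gave 1 lower from B48. Depth class, the chromosome 8 decay and the curve beyond 10 Mb for bins were chosen after seeing the data, as were the depth classes, mean trans capture, no curve and shared sites for the block.

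Leaving out each library in turn gave -0.020 to 0.28 for the B30 block, -0.42 to -0.34 for B41, 0.13 to 0.26 for B46 and -0.044 to -0.024 for B48. Block minus desert ranged from 0.31 to 0.55, -0.51 to -0.42, 0.26 to 0.44 and -0.28 to -0.24. Each of the 14 omissions of a B41 or B48 library ended that bait's call (adjusted p 0.0625 in the exact test). The raw p was 0.0312, the smallest that 6 libraries allow, so the call could not be kept. Block differences ranged from 0.35 to 0.65 (B30 minus B41), -0.19 to 0.11 (B30 minus B46), 0.015 to 0.32 (B30 minus B48), -0.63 to -0.50 (B41 minus B46), -0.39 to -0.30 (B41 minus B48) and 0.17 to 0.30 (B46 minus B48). In block minus desert they ranged from 0.77 to 1.01, -0.015 to 0.24, 0.57 to 0.81, -0.90 to -0.72, -0.25 to -0.16 and 0.52 to 0.70. Without library 1 of B30, block minus desert of B30 (0.55) and B30 minus B41 (0.65) passed the threshold, and without library 1 of B46, block minus desert of B46 (0.44) and B46 minus B48 (0.30) did; without library 4 of B30 the B30 block turned to -0.020. Bin counts ranged from 6 to 11 higher and 0 to 2 lower from B30, 0 higher and 10 to 13 lower from B41, 5 to 9 higher and 0 lower from B46, and 2 higher and 1 to 5 lower from B48.

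No paired analysis was possible because the libraries of a bait were found by their reads, their titles name other baits, and their numbers follow only column order. Up to 78.2% of block sites were captured in a library, where a ratio of shares has an upper bound, and the fewest captured block sites were 264.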
